A study of Mus musculus with 2 samples.

Results

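The miRNAs described here are those with high catalogue numbers, the late entries of the mouse miRNA catalogue, that were detected in bone marrow-derived macrophages (BMDMs). They were chosen by name and by count: a name belonged if the integer after miR- was 1000 or more, other than in miR-1188, miR-1193, miR-1197 and miR-1224, and if its counts summed to at least 10 over both libraries. Of the 1915 mature miRNA names in the table, 1058 met the rule on the number, and 190 of these also met the rule on counts. A further 304 of the 1058 had 1 to 9 counts and 564 had 0 counts. Because counts chose the 190 members, their abundance is given as a description with no test.

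The study sequenced small RNA from unstimulated BMDMs to profile the miRNAs of resting macrophages. Both libraries come from wild type mice of the C57/BL6 background at 8 weeks of age, and are labelled as biological replicates 1 and 2 of the same untreated condition. The macrophages were grown in culture from marrow with medium conditioned by L cells, so they are a culture model and not cells taken directly from tissue. Library totals were 7322969 counts for replicate 1 and 8094314 for replicate 2. Values are RpM, the reads of a name for every 1000000 counts in its library, or the same share as a percent of the library total. A floor of 3 counts, the limit that a count of 0 allows, is 0.410 RpM in replicate 1 and 0.371 RpM in replicate 2. Reads were amplified by PCR and carry no molecular identifiers, so intervals, floors and p-values reflect counting error alone. The p-values compare these 2 libraries and no conditions.

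Most miRNAs are cut from a hairpin in a primary transcript by Drosha with its partner Dgcr8, and then by Dicer, which leaves a duplex of a 5p and a 3p arm. One arm is usually retained by an Argonaute protein, which it guides to target mRNAs through its seed. Mirtrons bypass Drosha, since splicing releases a short intron that folds as the hairpin, and tailed mirtrons share a single end with their intron. Some catalogued miRNAs lie within snoRNAs and scaRNAs, which guide the modification of rRNA and snRNA, or within tRNAs, and small RNA libraries also hold fragments of such RNAs.

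The libraries carried the miRNAs known from macrophages. The 6 macrophage and myeloid markers summed to 356542 and 354153 RpM in replicates 1 and 2, and the most abundant was miR-21a-5p at 279747 and 257096 RpM. miR-223-3p, a miRNA of the myeloid lineage, was at 6053 and 4485 RpM, and miR-155-5p, which is induced by activation, was at 99.0 and 44.4 RpM. miR-146a-5p, also induced by activation, went the other way, at 27603 and 59649 RpM, so the nearly equal sums hold markers that differ in opposite directions. The 2 erythroid markers summed to 1.23 and 0.988 RpM. Of the muscle markers, miR-1a-3p and miR-206-3p had 0 counts in both libraries and miR-133a-3p had 0 and 6. Of the neuronal markers, miR-124-3p had 0 counts in both and miR-9-5p had 12 and 11, or 1.64 and 1.36 RpM. Markers of other cells were low but present, with the 5 fibroblast and stromal markers at 239 and 161 RpM, the 4 epithelial markers at 152 and 165 RpM and the 2 endothelial markers at 62.5 and 46.2 RpM. The part of such cells in the values below was not tested.

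Mature sequences were matched by name for 164 of the 190 members and are given from RefSeq, build GRCm38.p6. The other 26 were miR-1194, miR-1249-5p, miR-1668, miR-1839-3p, miR-1927, miR-1948-3p, miR-1948-5p, miR-1949, miR-1955-3p, miR-1957a, miR-3074-1-3p, miR-3075-5p, miR-3079-3p, miR-3079-5p, miR-3470a, miR-3970, miR-5099, miR-6539, miR-6913-3p, miR-6951-5p, miR-6983-3p, miR-6983-5p, miR-7042-5p, miR-7219-3p, miR-7677-3p and miR-8097. The most abundant matched members are shown with miR-5126, which had the largest ratio between the libraries among members with at least 50 counts, and with both arms of miR-1981, which lie in a mirtron. Capitals mark the seed, bases 2 to 8.
miR-1198-5p: uAUGUGUUccuggcuggcuugg
miR-1839-5p: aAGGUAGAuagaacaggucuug
miR-1249-3p: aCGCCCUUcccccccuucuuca
miR-1983: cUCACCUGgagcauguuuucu
miR-3968: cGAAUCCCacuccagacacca
miR-6240: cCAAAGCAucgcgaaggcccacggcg
miR-2137: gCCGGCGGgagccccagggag
miR-3068-3p: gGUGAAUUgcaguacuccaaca
miR-1843a-5p: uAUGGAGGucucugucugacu
miR-1843b-5p: aUGGAGGUcucugucugacuu
miR-5126: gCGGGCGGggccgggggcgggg
miR-1981-5p: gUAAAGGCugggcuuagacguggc
miR-1981-3p: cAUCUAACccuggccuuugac
No seed is repeated among these sequences. The 164 members held 163 different seeds, and the pair that shared one was miR-3473b and miR-3473e.
miR-3473b: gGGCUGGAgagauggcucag
miR-3473e: gGGCUGGAgagauggcucgua
miR-1843a-5p and miR-1843b-5p have different seeds but share a run of 20 of their 21 bases, shifted by 1 base. Reads of one could have been counted as the other, so the counts of the pair are less certain than their intervals. The same limit holds for miR-3473b and miR-3473e, which share a run of 18 bases.

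The last bases carry a different feature, which a group of 3p members at the ends of introns has in common. Capitals here mark the last 2 bases, to be compared with the AG that ends nearly every intron.
miR-3082-3p: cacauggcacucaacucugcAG
miR-3076-3p: cgcacucuggucuucccuugcAG
miR-7035-3p: ucugagccgcugucccugcAG
miR-7043-3p: acugugccucucuguuuucAG
All 4 end at the last base of an intron.

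The members were many in number and small in abundance. Their 34876 counts made up 0.476% of replicate 1 (95% Wilson interval 0.471 to 0.481). Their 29653 counts made up 0.366% of replicate 2 (0.362 to 0.371), and the mean was 0.421% ± 0.0777 (SD, n = 2). The median member had 29 counts summed over both libraries, against 615 for the 398 other names with at least 10 counts. In mean RpM the medians were 1.89 and 40.2. Of the members, 66 had 10 to 19 counts, 59 had 20 to 49, 22 had 50 to 99, 31 had from 100 to under 1000 and 12 had at least 1000.

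A few members held most of these counts. miR-5099 took 32.2% of the member counts in replicate 1 and 26.3% in replicate 2, and the 10 highest members took 75.9% and 70.1%. Without miR-5099 the summed share was 0.297% ± 0.0375 (SD, n = 2). The 20 members with 10 or 11 counts, just inside the minimum, had 3 to 8 counts in a library and a mean of 0.637 to 0.732 RpM. The 14 names with 8 or 9 counts, just outside it, had 1 to 7 counts in a library and a mean of 0.501 to 0.595 RpM.

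miR-5099 led the members, at 1533 and 963 RpM in replicates 1 and 2, and ranked 59 among all names by mean share. miR-1198-5p had 383 and 293 RpM. miR-1839-5p had 296 and 378 RpM. The order of this pair was reversed between the libraries, so they cannot be ranked against each other. miR-1249-3p had 299 and 210 RpM, and miR-1983 had 224 and 197 RpM. miR-3968 had 221 and 157 RpM, and miR-6240 had 237 and 117 RpM. Neighbours from miR-1249-3p to miR-6240 overlapped in their ranges. miR-2137 had 224 and 49.2 RpM, the widest range of the 10 as a fold. miR-3068-3p, at 122 and 120 RpM, and miR-1843a-5p, at 79.9 and 83.8 RpM, were not called between the libraries in the test described next, although TMM scaling, also explained there, called miR-1843a-5p (Fisher's exact test, Benjamini-Hochberg adjusted p = 0.042).

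**Figure D1:**
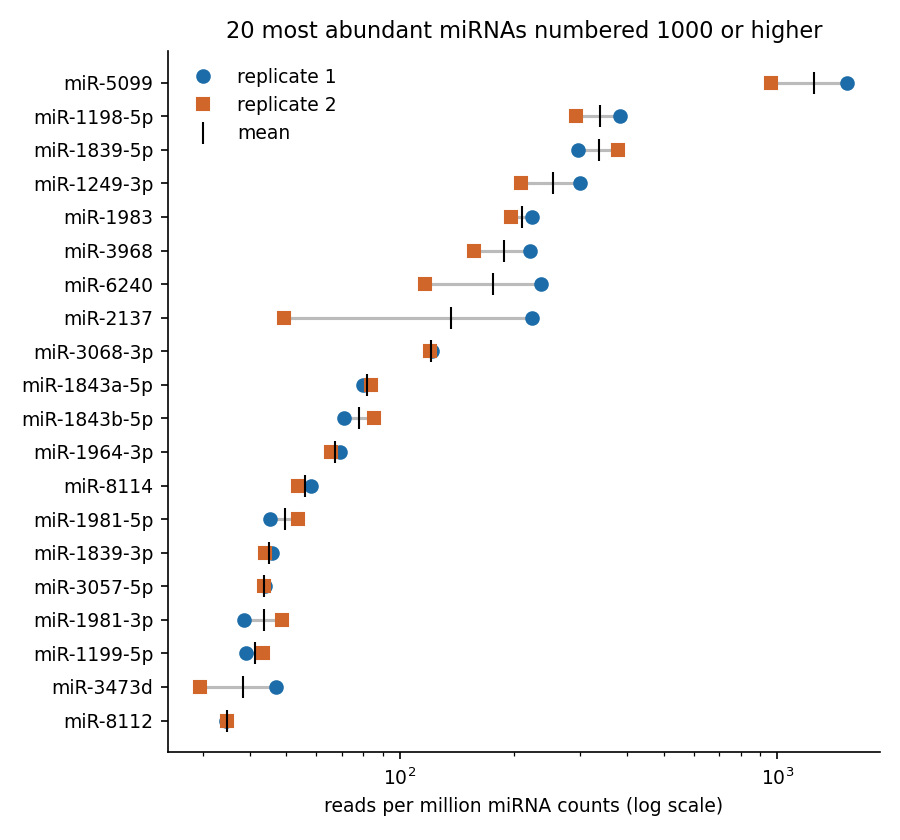
RpM (log scale) of the 20 members with the highest mean, with a point for each library and a bar at the mean. miR-2137 has the longest line, from 49.2 to 224 RpM, and miR-3068-3p, miR-3057-5p and miR-8112 have points that nearly coincide.

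The libraries differed in some of the members. Each name was compared between the libraries by Fisher's exact test (two-sided) with Benjamini-Hochberg adjustment over all 588 names with at least 10 counts, and was called at an adjusted p under 0.05. Of the 190 members 29 were called, 12 higher and 17 lower in replicate 2, beside 44.2% of all names tested (13.8% higher and 30.4% lower). The members' counts are lower than those of other names, which limits what the test can call, so their share of calls is not read as steadiness. Among names with at least 1000 counts, 9 of 12 members and 131 of 158 other names were called. From 100 to under 1000 counts the calls were 9 of 31 members and 70 of 125 other names, a difference that was not tested.

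Over the members, the log2 ratio (replicate 2 over replicate 1) had a median of -0.03, and over all names -0.16. TMM scaling, which sets the bulk of names equal, moved the median of all names to -0.04, a shift of 0.12 that applies to every ratio given here. With TMM, 31 members were called, 16 higher and 15 lower, against 120 higher and 138 lower among all names, and 27 of the 31 were also called with library totals. The median of the members became 0.10 with TMM, so its sign depends on the scaling. A ratio beyond 2-fold was found for 30 members (15.8%), 16 lower and 14 higher in replicate 2, beside 83 of all 588 names (14.1%), 62 lower and 21 higher. With TMM it was 40 members, 14 lower and 26 higher, beside 91 of all names, 54 lower and 37 higher. Most of the members beyond 2-fold had few counts. With 0.5 added to each count, as in every log2 ratio here, 4 of the 65 members with at least 50 counts were beyond 2-fold. These were miR-5126, miR-6539, miR-2137 and miR-6240, all lower in replicate 2. Without the added 0.5, miR-7043-3p was also beyond it, at 2.02-fold higher in replicate 2. With TMM the count became 6, 3 lower and 3 higher: miR-6240 was then inside 2-fold at -0.90, and miR-7043-3p, miR-3970 and miR-6960-5p were beyond it at 1.12, 1.08 and 1.04.

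**Figure D2:**
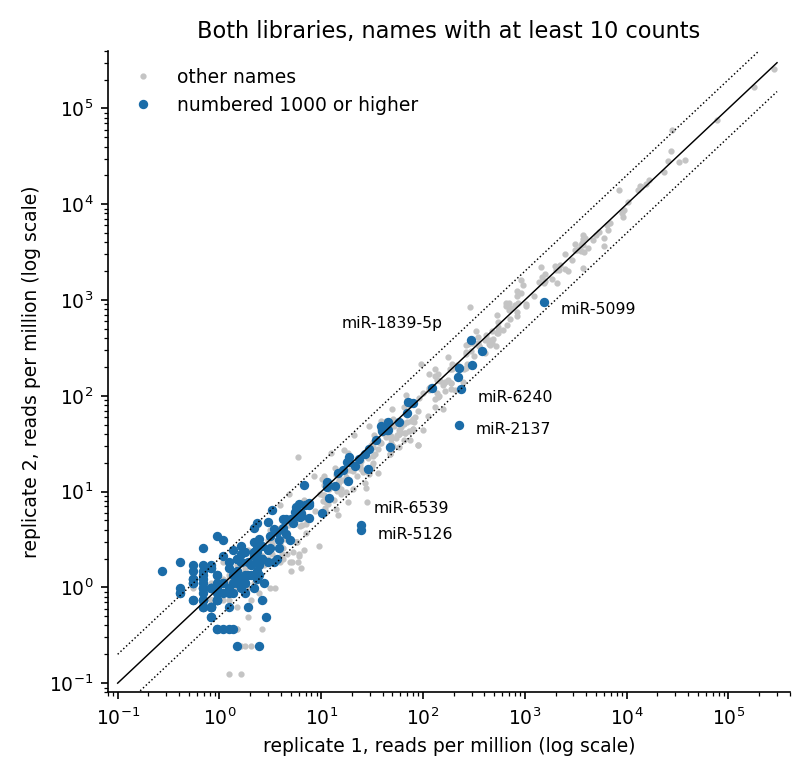
RpM of every name with at least 10 counts in replicate 1 (horizontal) and replicate 2 (vertical), both on log scales, with members in blue and other names in grey. The solid line marks equality and the dotted lines a 2-fold difference, and miR-2137, miR-5126 and miR-6539 lie below the lower one.

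Among the members with 50 or more counts, the 3 largest ratios toward replicate 1 exceeded the 3 largest toward replicate 2. miR-5126 had 178 counts in replicate 1 and 32 in replicate 2, a log2 ratio of -2.60 (Fisher's exact test, Benjamini-Hochberg adjusted p = 2.86e-28). miR-6539 had 180 and 36 counts, a log2 ratio of -2.45 (Fisher's exact test, Benjamini-Hochberg adjusted p = 1.20e-26). Both were lower in replicate 2 under TMM as well, at -2.48 and -2.33, and a mean of both libraries rests mostly on replicate 1. In the other direction the ratios were smaller. miR-7043-3p had 17 and 38 counts, a log2 ratio of 0.99 (Fisher's exact test, Benjamini-Hochberg adjusted p = 0.034). miR-3970 had 24 and 52 counts, a log2 ratio of 0.96 (Fisher's exact test, Benjamini-Hochberg adjusted p = 0.014). miR-6960-5p, with 16 and 34 counts, was not called with library totals (Fisher's exact test, Benjamini-Hochberg adjusted p = 0.072) and was called with TMM (adjusted p = 0.036). miR-1983 went the other way, with a call at the library total (Fisher's exact test, Benjamini-Hochberg adjusted p = 0.0011) that was lost with TMM (adjusted p = 0.41).

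Calls were also counted by the arm in the name. The 57 members with no arm in the name held 59.7% of the member counts in replicate 1 and 49.2% in replicate 2. Of them 17 were called, 14 lower and 3 higher in replicate 2. The 66 members named 5p had 8 calls, 6 of them higher in replicate 2, and the 67 named 3p had 4 calls, 3 of them higher. With TMM the members without an arm had 15 of the 31 calls, 12 lower and 3 higher. Over all 588 names with library totals, 23 of 77 without an arm were called, 8 higher and 15 lower. Of the 511 with an arm 237 were called, 73 higher and 164 lower. With TMM 22 of the 77 were called, 10 higher and 12 lower, and 236 of the 511, 110 higher and 126 lower. Whether the groups differ was not tested.

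miR-2137 was among the most abundant members in replicate 1 and less so in replicate 2. It had 1638 counts in replicate 1 and 398 in replicate 2, or 224 and 49.2 RpM, a mean of 136 ± 123 RpM (SD, n = 2). It ranked 119 among all names in replicate 1 and 182 in replicate 2. The level in replicate 1 was 4.55-fold that in replicate 2, a log2 ratio of -2.18 with an exact 95% interval of -2.35 to -2.03 (Fisher's exact test, Benjamini-Hochberg adjusted p = 9.42e-205), and -2.06 with TMM. Its mean rests on replicate 1: the share was 0.0136% over both libraries, 0.0224% without replicate 2 and 0.00492% without replicate 1. miR-6240 behaved likewise to a lesser degree, with 0.0177% over both libraries, 0.0237% without replicate 2 and 0.0117% without replicate 1. The summed share of the members was 0.408% without miR-2137, against 0.421% with it.

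The hairpin of miR-2137 lies at chrX:72992079-72992144 on the plus strand, and its mature sequence at chrX:72992113-72992133. The 66-base hairpin sits inside an intron of Zfp185, which encodes a LIM domain protein. That intron is 8632 bases long, and the hairpin is 3676 bases from its 5′ end and 4890 bases from its 3′ end. The position is therefore not that of a mirtron. The hairpin overlaps no annotated snoRNA, scaRNA or tRNA gene, and the mature sequence has 0 exact matches in transcripts of other genes. rRNA sequences were not searched beyond the annotated transcripts. G and C make up 85.7% of its mature sequence, beside a median of 54.5% over the 154 members with a hairpin position.

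Base composition and the ratio between the libraries were compared across members as a description, with all points from the same libraries. Over all 154 placed members, Pearson's r between GC percent and log2 ratio was -0.051 and Spearman's rho was -0.015. Among the 55 of them with at least 50 counts, Pearson's r was -0.58 and Spearman's rho was -0.29. Without miR-2137, miR-5126 and miR-6240, the 3 of these with the lowest ratios, they were -0.12 and -0.17 over 52 members. The 3 were picked by their ratios, so a weaker value was built in and no conclusion is drawn from it. Of the 13 members with a sequence of at least 70% G and C, 3 were called lower in replicate 2, 1 was called higher and 9 were not called. Among all 190 members 17 were lower and 12 higher, and over all names 30.4% were lower and 13.8% higher. Lower calls were thus more frequent than among all members. They were no more frequent than in the whole table, whose names have more counts. Whether these shares differ was not tested. The lower ones of the 13 were miR-2137, miR-5126 and miR-6236, which had 18 and 2 counts and a log2 ratio of -3.03. The higher one was miR-6538, with 5 and 21 counts and a log2 ratio of 1.82. With TMM 3 were called lower and 2 higher, the added one being miR-1199-5p, at 0.15 with library totals. miRNAs are not independent replicates, and no cause of the differences was tested.

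**Figure D3:**
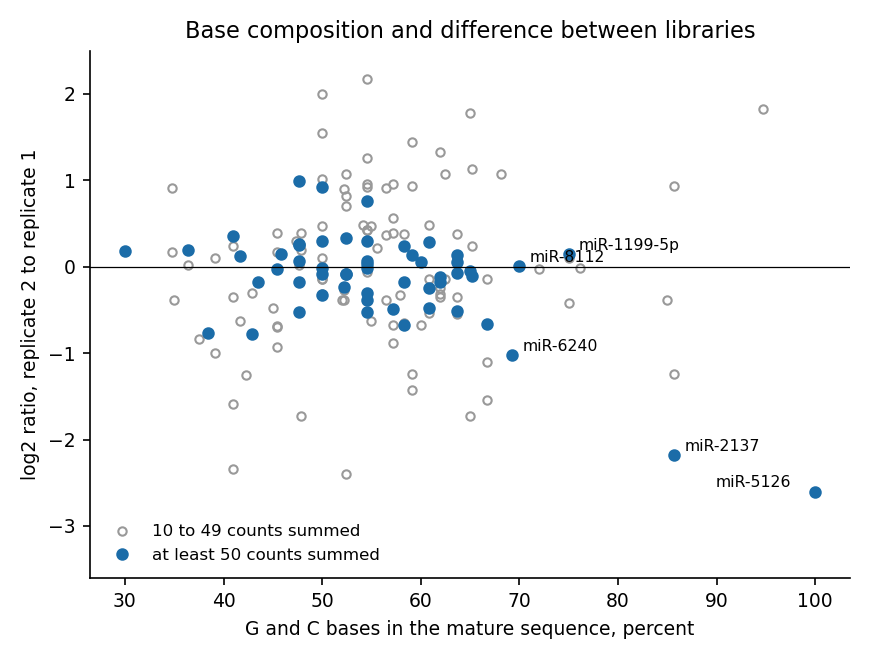
Log2 ratio of replicate 2 to replicate 1 against the percent of G and C in the mature sequence, for the 154 placed members. Filled points are members of at least 50 counts and open points are members of 10 to 49. miR-6236 has no hairpin position, so it is neither drawn nor in the correlations. miR-5126 and miR-2137 lie at the lower right, miR-1199-5p and miR-8112 near 0, and the open point of miR-6538 at the upper right.

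Arm use was one-sided for most hairpins. For 114 hairpins with both arms listed and at least 10 counts over the arms, the major arm was the 5p arm in 60 and the 3p arm in 54. miR-7093, with a mean of 50% on each arm, was counted among the 54. The median share of the major arm was 93.8%, and it exceeded 90% in 71 hairpins (62.3%). For the 191 other hairpins the median was 97.0%, and 125 (65.4%) exceeded 90%, so this trait is not particular to the members. The major arm was the same in both libraries for 103 of the 114, beside 184 of 191 other hairpins. miR-1231, miR-7669 and miR-6970, at 50% in 1 library, were counted as changed. The median SD of the 5p percent between the libraries was 2.84 for the 114 and 0.765 for the others. Depth differed between these groups: with 50 or more counts the median SD was 1.28 for 38 hairpins, against 1.16 for 93 other hairpins in a similar range of counts, and the major arm was the same in 37 of the 38 and in 88 of the 93. Fisher's exact test of the arms between the libraries, with Benjamini-Hochberg adjustment over 305 hairpins, called 1 of the 114, beside 17% of all hairpins tested. At an unadjusted p under 0.05 there were 2. Of the 114 hairpins 76 had under 50 counts over both arms, against 25 of the 191 others, and at such depth a change of arm use was hardly detectable, so the number of calls is not read as likeness.

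The 1 call was miR-1839. Its 5p arm took 86.6% of the arm counts in replicate 1 (exact 95% interval 85.2 to 87.9) and 89.6% in replicate 2 (88.5 to 90.6), a small difference on 5915 counts (Fisher's exact test, Benjamini-Hochberg adjusted p = 0.0040). The test covers counting error only.

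Of the 38 hairpins with at least 50 counts, 13 gave over 90% of counts from the 5p arm and 11 gave over 90% from the 3p arm. miR-1198 was nearly all 5p, at 99.4% in both libraries. miR-1249 was nearly all 3p, with 0.273% of counts on the 5p arm in replicate 1 and 0.469% in replicate 2. Also on the 3p side, miR-1964 had 1.55% and 0.562% on the 5p arm. The related hairpins miR-1843a and miR-1843b both favoured the 5p arm, the first more than the other. For miR-1843a the 5p arm took 96.4% and 97.8%, and for miR-1843b 81.4% and 83.4%, but reads shared between their 5p arms limit this comparison.

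The other 14 hairpins used both arms. miR-1981 came closest to equal use among the well-counted ones, with 53.9% of counts on the 5p arm in replicate 1 (exact 95% interval 49.9 to 57.9) and 52.4% in replicate 2 (48.9 to 55.9). miR-3068 had 10.6% and 11.7% on the 5p arm, and miR-1948 had 28.9% and 25.1%. Within each of these 3 the libraries were not called different. miR-3098 had 61.6% ± 11.9 (SD, n = 2) on the 5p arm, on 87 counts. miR-7679 was the exception in which the major arm changed, with 38.9% on the 5p arm in replicate 1 and 71.8% in replicate 2 on 57 counts, and this was not called (Fisher's exact test, Benjamini-Hochberg adjusted p = 0.12).

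**Figure D4:**
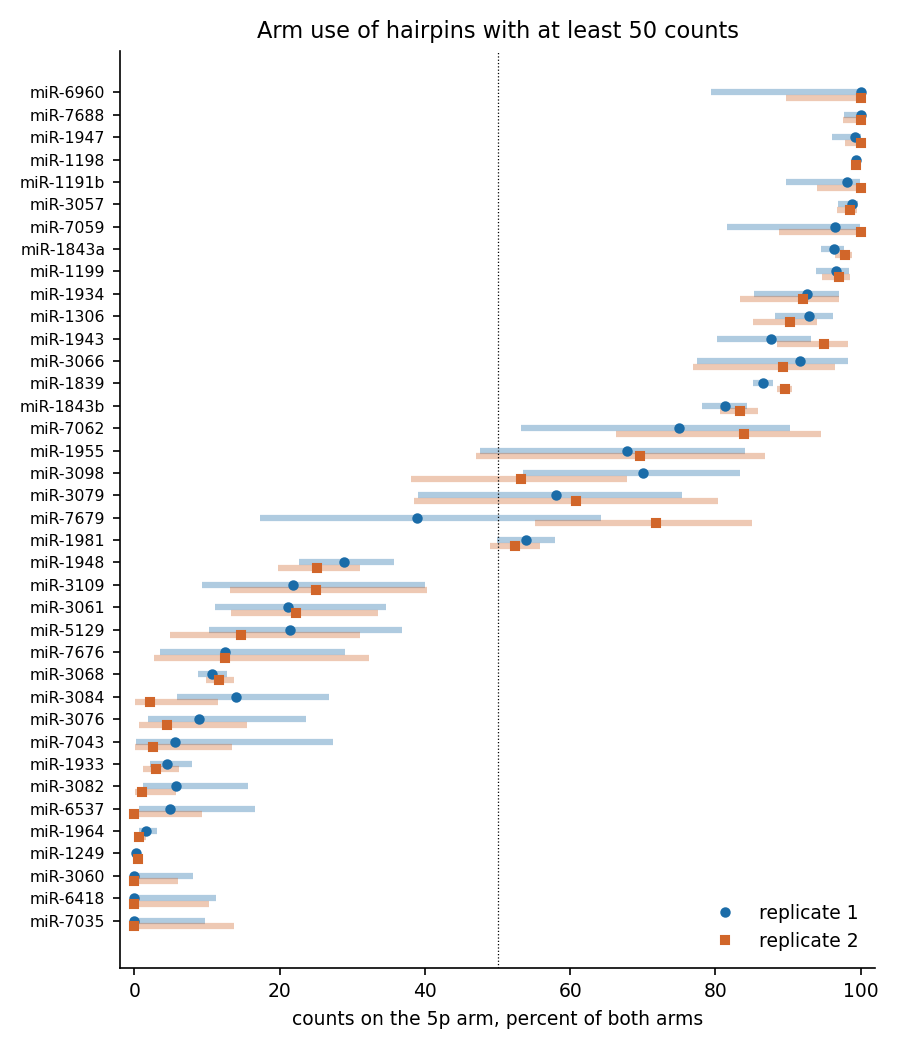
Percent of arm counts on the 5p arm for the 38 hairpins with at least 50 counts, with a point for each library and a bar for its exact 95% interval. The hairpins gather at both ends of the axis, miR-1981 lies near the dotted line at 50%, and miR-7679 crosses it.

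Hairpin positions were matched for 154 of the 190 members and were placed against GENCODE M21 and the RefSeq tRNA genes. The 154 held 22234 of the 34876 member counts in replicate 1 and 20452 of 29653 in replicate 2. The other 36, with miR-5099 among them, have no class, so the classes leave out the most abundant member. The positions fell into 8 classes. Hairpins inside an intron and away from its ends made up 53 members, and those at 1 end of an intron 39. Another 25 overlapped an exon, 14 overlapped a snoRNA or scaRNA, and 10 lay between genes. 6 spanned an intron, 6 lay on the opposite strand of a gene, and 1 overlapped a tRNA gene. Hairpins were matched for 71.4% of the other names, under the 80% set for such a check, so a comparison of positions with other names is void and none is given.

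**Figure D5:**
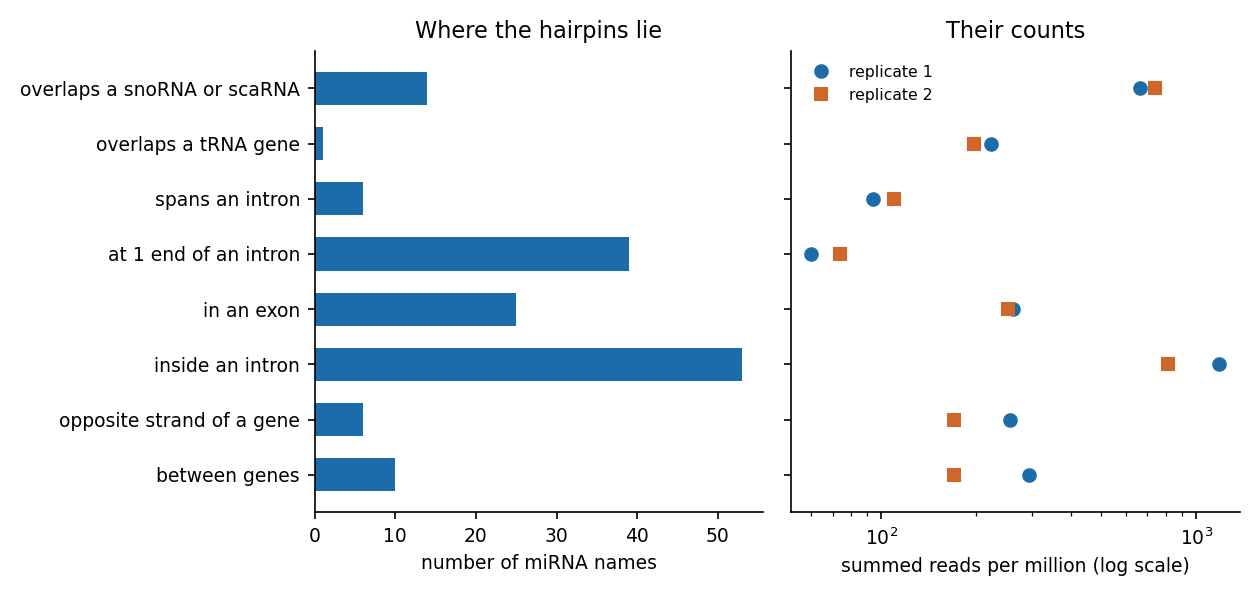
Number of members in each class of hairpin position (left) and their summed RpM in each library on a log scale (right). The 36 members without a hairpin position, miR-5099 among them, are not drawn. The 39 members at 1 end of an intron are many but sum to 59.9 and 74.1 RpM, while the 14 in snoRNAs and scaRNAs, most of it from 4 members, sum to 664 and 742 RpM.

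Members found within other annotated RNAs were few, and a handful of them carried most of their counts. rRNA and tRNA sequences were not searched beyond the annotated transcripts, and tRNA genes were compared by position alone. Members within such RNAs could thus have been missed. miR-1983, placed in a tRNA gene by position, is described apart. The mature sequences of 16 of the 164 matched members lay in an annotated short RNA other than a miRNA, and they held 5111 counts in replicate 1 and 6262 in replicate 2. Most of these counts belonged to miR-1839-5p, miR-3068-3p, miR-1843a-5p and miR-1843b-5p, while others were rare, such as miR-1291 in Snora34 with 20 and 9 counts. The most abundant was miR-1839-5p, whose locus is annotated as a scaRNA in an intron of the noncoding gene 2900076A07Rik. miR-3068, in an intron of Alkbh1, a demethylase of nucleic acids, is annotated as a snoRNA and had 3p counts of 890 and 969. miR-1843a overlaps Scarna3b in an intron of Dcaf5, and miR-1843b overlaps Scarna3a in an intron of Cop1, which encodes a ubiquitin ligase. The mature sequence of miR-1843b-5p matched both Scarna3a and Scarna3b exactly, so its counts are not tied to a single locus. miR-3535, with 213 and 138 counts, overlaps a snoRNA in an intron of Ncl, the gene of nucleolin. miR-5121, with 135 and 104 counts, overlaps Snord33 in an intron of Rpl13a, a ribosomal protein gene. miR-3084-3p, with 43 and 45 counts, matched Snora19 and another snoRNA. Both kinds of product, a processed miRNA and a fragment of the host RNA, would have the same name in the table and cannot be told apart.

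miR-1983 is the member placed in a tRNA gene. Its hairpin at chr13:21896918-21897049 on the minus strand overlaps the tRNA gene n-TItat14, and its mature sequence at chr13:21896930-21896950 crosses the edge of the tRNA at 21896938. The strand of the tRNA was not used here. miR-3968, on the opposite strand of Trim80, and miR-3060-3p end in CCA, the letters added to the 3′ end of tRNAs. Among the 154 placed members they were the 2 with this ending, and a match of 3 letters shows no origin.

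Mirtron positions, with both hairpin ends within 10 bases of the ends of an intron, were found for 6 members from 5 hairpins. miR-1981 was by far the most abundant. Its hairpin at chr1:184822407-184822488 on the minus strand is exactly an 82-base intron of Marc2, and its 5p arm had 331 and 434 counts and its 3p arm 283 and 394. Both arms were called higher in replicate 2 (Fisher's exact test, Benjamini-Hochberg adjusted p = 0.046 for 5p and 0.0081 for 3p), also with TMM. The other 4 had under 50 counts each. miR-7091-5p fills a 79-base intron of Dnase1l1, a deoxyribonuclease gene. miR-7068-3p fills a 74-base intron of Cherp, and miR-1982-3p a 74-base intron of Oaz1, the gene of ornithine decarboxylase antizyme. miR-1231-5p lies in an 88-base intron of Nav1, 7 bases from its 5′ end.

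Counting hairpins at 1 end as well, 45 members from 41 hairpins lay at an intron end by class. miR-5121 is not among them, since it was put in the snoRNA or scaRNA class. Its hairpin passes the 5′ end of its Rpl13a intron by 1 base. Among the 41 hairpins, the end was the 3′ end of the intron for 39, exactly so for 31, and the 5′ end for 7. The introns ran from 66 to 5867 bases with a median of 324, so most were longer than a hairpin, as in tailed mirtrons. Of the 24 members of this group named 3p, 17 ended in AG, or 70.8%, and 17 ended at the last base of the intron. Among the 31 placed 3p members elsewhere, 0 ended in AG. Introns nearly always end in AG, so a mature sequence that ends at the last base has the intron's own last letters.

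Examples come from genes of varied function. miR-3082-3p had 50 and 94 counts and ends with the intron of Stub1, which encodes a ubiquitin ligase that works with chaperones. miR-3076-3p had 31 and 42 counts and ends with an intron of Tkt, the transketolase gene. miR-7035-3p, with 36 and 25 counts, ends with an intron of Rasa4. miR-7043-3p, one of the members higher in replicate 2, ends with an intron of Rassf4. Their shared last bases are those shown in capitals above. miR-7059-5p, with 27 and 31 counts, lies in the hairpin at the 3′ end of an intron of Cln3, a lysosomal membrane protein gene. miR-5129-3p, with 33 and 29 counts, lies at an intron end of Zeb2, which encodes a transcription factor.

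The exon class held 25 members, 13 in UTRs, 9 in coding sequence, 2 in both and 1 in a noncoding exon. miR-8114, with 426 and 434 counts, lies in a UTR of Glul, the glutamine synthetase gene. miR-8112, with 253 and 282 counts, lies in a UTR of Krcc1. miR-3057-5p, with 321 and 352 counts, lies in coding sequence of Apba3. miR-1306-5p, with 170 and 175 counts, lies in coding sequence of Dgcr8, itself the partner of Drosha. miR-1199-5p, with 286 and 350 counts, lies in coding sequence of 2210011C24Rik and was called higher in replicate 2 with TMM but not with library totals. Of the 25 members, 2 were called with library totals, beside 29 of all 190 members and 44.2% of all names, and both were lower in replicate 2: miR-1191a, with 75 and 48 counts, and miR-5103, with 19 and 6.

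Inside introns, away from the ends, were some of the most abundant members. miR-1198-5p lies in an intron of Gripap1, miR-1249-3p in one of 5031439G07Rik, and miR-1964-3p, with 69.2 and 65.6 RpM, in one of Zfp84. This class, with miR-2137 included, summed to 1184 and 811 RpM. Between genes lay miR-6240, on chromosome 5, and on the opposite strand of Dner lay miR-5126, whose mature sequence is 100% G and C. For both, as for miR-3968, rRNA and tRNA sequences were not searched beyond the annotated transcripts, and another source of their reads was not tested. The 10 members between genes summed to 293 and 170 RpM.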

How the data were processed

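The authors extracted total RNA, depleted rRNA, prepared and sequenced small RNA libraries and aligned trimmed reads to mouse miRBase stem-loops with Bowtie. They deposited raw counts per mature name, and the processing notes of the submitters name DESeq2. Shares of the library total, log2 ratios (pseudocount 0.5) and tests were computed with Python 3.11.15 and SciPy 1.17.1. Scaling alternatives were TMM from edgeR 4.0.16 and size factors from DESeq2 1.42.0 in R 4.3.3. The DESeq2 factors, over the 776 names counted in both libraries, were both 1, since the median ratio fell on names with equal counts (65 names), so that alternative leaves counts unscaled. Procedures were tested on simulated data. Positions used GENCODE M21 and RefSeq.

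Members and lists were chosen with earlier results of these data known. Values are given for the 10 highest members, miR-2137, the 3 largest ratios in each direction, hairpins with at least 50 counts (grouped in part), mirtrons, members in other RNAs, and the count minimum. Exact equal counts tied 67 members in 33 groups, the highest at 53 counts summed (miR-3098-5p and miR-466h-5p, 28 and 25), and lower groups are not listed. Members in exons and introns and with under 50 counts were named after their values were seen. Other count minimums, pseudocounts, distances and mismatches were also tried.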

Additional observations from a re-analysis of the deposited data

How the results depend on the processing

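No paired analysis was possible because both libraries share 1 condition. The number of members was 105 with at least 10 counts in every library, 320 with at least 3 counts summed and 65 with at least 50, as a changed minimum must give. The summed share was 0.577% of the total without miR-21a-5p, by construction of the smaller total. Leaving out each library gave 0.366% to 0.476%, and a median major arm share of 94.3% to 96.1%. The median log2 ratio of the members was 0.10 with TMM and 0.12 with DESeq2 factors, since scaling adds a constant to every ratio, 0.12 and 0.14. The DESeq2 factors were both 1, so that alternative compared the counts unscaled, and its shift of 0.14 comes from leaving out the library totals. Mirtron positions were 11 within 20 bases, by the wider distance. The number of members called ran from 20 to 31 over the alternatives tried. Members at an intron end numbered 40 within 3 bases and 46 within 20, alternatives chosen after seeing the data.

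Under TMM and DESeq2 factors miR-1983 lost its call, miR-1843a-5p and miR-6960-5p gained one, and miR-3068-3p, not called, changed sign, all by the same constants. With TMM miR-5121 also lost its call, and miR-1948-3p and miR-1199-5p also gained one. With 2 libraries the spread between libraries is poorly known, and members with under 50 counts have wide counting intervals.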

Other observations

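Some members have sequences that recur in many transcripts. The mature sequence of miR-3470b has exact matches in transcripts of 546 other genes, that of miR-3473b in 343 and that of miR-3473a in 146. Their counts were 195 and 199 for miR-3470b, 55 and 59 for miR-3473b, and 17 and 22 for miR-3473a. The sequence alone does not place such a read in a hairpin.

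A pair of members lies on the opposite strand of the hairpin of another miRNA: miR-3074-5p, with 37 and 42 counts, opposite Mir24, and miR-3065-5p, opposite Mir338. 3 members share a seed with a name outside the rule that had at least 10 counts. miR-6240 shares one with miR-330-3p, miR-3473d with miR-674-5p, and miR-5129-3p with miR-455-5p.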
